A study of Mus musculus with 13 samples.

Results

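The small leucine-rich proteoglycans (SLRPs) are secreted proteins whose core is a bent solenoid of leucine-rich repeats, in most members carrying glycosaminoglycan chains. They sit on collagen fibrils, where they set fibril spacing and diameter, and several of them also hold transforming growth factor-beta in the matrix or bind receptors at the cell surface. In dermis they are made mainly by fibroblasts, and decorin is the best known of them, because mice without it have irregular collagen fibrils and fragile skin. The 10 genes described here were taken by symbol from the 25655 genes listed for every library. They are Dcn (decorin), Bgn (biglycan) and Aspn (asporin) of class I, Fmod (fibromodulin), Lum (lumican), Prelp (prolargin) and Omd (osteomodulin) of class II, Ogn (osteoglycin) of class III, and Podn (podocan) and Podnl1 (podocan-like 1) of class V. All 10 were above 0 in all 13 libraries, and all 10 were among the 11942 genes that reached 1 TPM, a read share scaled to transcript length and library total, in at least 6 libraries.

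RNA-seq was carried out on 13 primary cultures of untreated fibroblasts from the dermis of neonatal mice. Cultures M1 to M7 came from mice with the G234D allele on both copies of Fbn1, the gene of fibrillin-1, which forms the microfibrils of elastic tissue, and cultures W1 to W6 came from wild-type (WT) mice. The allele is in the germ line and no transgene or Cre driver is named in the labels, and each culture came from a separate mouse. Set 1 held M1 to M4 and W1 to W4, and set 2 held M5 to M7 and W5 and W6. The sample titles carry animal numbers that fall into 3 ranges. M1, M2, W1 and W2 had the lowest numbers (the earlier animals of set 1), M3, M4, W3 and W4 had 4 consecutive numbers above these (the later animals of set 1), and the cultures of set 2 had 5 consecutive numbers higher still. Within the earlier range the number of W1 stood well below those of M1, M2 and W2, which lay close together. No label says what a range stands for, so the fits by range below compare groups of cultures whose difference is not named, and a range cannot be told apart from whatever handling went with it.

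Each library summed to 1000000 TPM, and 11741 to 12042 genes reached 1 TPM in a library. TPM keep no read totals, so the depth behind each value is unknown. All 9 listed dermal fibroblast markers reached 1 TPM in every culture, with summed levels of 19302 to 30769 TPM. The targeted gene Fbn1 had 542 ± 50.2 TPM in G234D cultures and 491 ± 42.8 TPM in WT cultures of set 1 (SD, n = 4 each), and 452 ± 32.2 TPM in G234D (SD, n = 3) against 405 ± 8.03 TPM in WT cultures (SD, n = 2) of set 2, a difference over both sets of 0.15 on the log2(TPM + 1) scale (SE 0.0576, limma's adjusted p = 0.742). In bulk cultures such as these, fewer cells of a type and less RNA per cell cannot be told apart.

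Bgn dominated the family in every culture. TPM are scaled to transcript length, so levels of different genes can be set side by side, and over the 13 cultures the mean levels were 5401 TPM for Bgn, 552 TPM for Aspn, 134 TPM for Dcn, 109 TPM for Fmod, 69.0 TPM for Podn, 45.0 TPM for Ogn, 31.7 TPM for Prelp, 10.9 TPM for Lum, 9.23 TPM for Podnl1 and 2.93 TPM for Omd. Bgn, which carries chondroitin or dermatan sulfate chains, lay between rank 8 and rank 17 among all genes of its library and made up 82.8% to 87.5% of the summed level of the 10 genes. Dcn, its closest relative, lay between rank 770 and rank 2714, and Bgn exceeded it between 30.5 and 78.3 times, with a median ratio of 40.8. The 10 genes together came to between 5308 and 7631 TPM, which is 0.531% to 0.763% of a library.

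Bgn and then Aspn had the highest levels and Omd the lowest in all 13 cultures, while several neighbours between them changed places. Bgn was above Aspn, Aspn above Dcn, Prelp above Lum and Podnl1 above Omd in 13 of 13 cultures. Dcn was above Fmod in 10 of 13, Fmod above Podn in 11 and Podn above Ogn in 11. Ogn was above Prelp in 8 cultures and Lum above Podnl1 in 8, so the neighbours in these pairs did not keep their order from culture to culture.

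**Figure D1:**
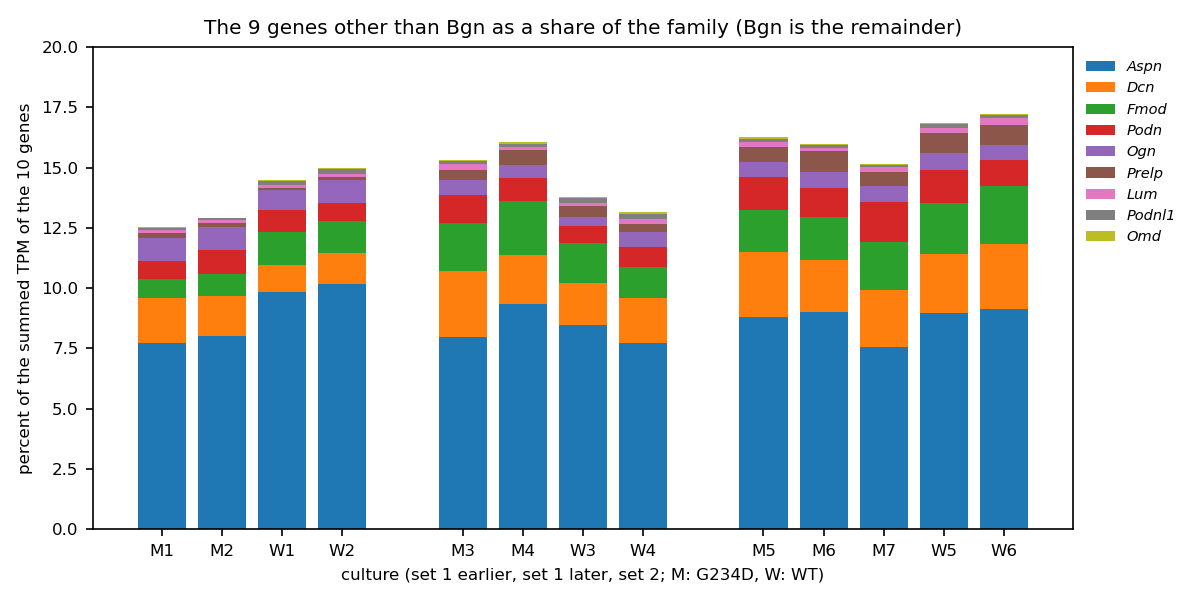
Share of the summed TPM of the 10 genes taken by each gene other than Bgn (y axis, percent, up to 20) in each of the 13 cultures (x axis, G234D left of WT in each range of animals), with Bgn as the remainder up to 100%. Aspn is the largest block in every culture, with 7.54% to 10.2% of the family, and the Prelp block takes 0.579% to 0.855% in set 2, against 0.103% to 0.182% in the earlier animals of set 1.

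The genes differed widely in how much their levels varied. Bgn ranged from 4611 to 6455 TPM, a highest level 1.40 times the lowest, and Aspn ranged from 409 to 685 TPM, or 1.67 times. Prelp ranged from 5.84 to 63.5 TPM, or 10.9 times, and Fmod from 41.3 to 170 TPM, or 4.12 times. The other 6 lay in between, from 2.28 times for Ogn to 3.67 times for both Lum and Podnl1.

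The members lie on 6 chromosomes, and 7 of them lie in groups of neighbours with no other protein-coding gene between them. By the GENCODE annotation of mm10, Prelp (1:133910304-133921414, minus strand) and Fmod (1:134037254-134048277, plus strand) point away from each other across a gap of 116 kb. Lum (10:97565128-97572703) lies 47.0 kb downstream of Dcn (10:97479609-97518143), both on the plus strand. Aspn (13:49544443-49567565), Omd (13:49582462-49592822) and Ogn (13:49608046-49624501) follow each other on the plus strand with gaps of 14.9 kb and 15.2 kb. Bgn (X:73483602-73495933, plus strand), Podn (4:108014791-108096445, minus strand) and Podnl1 (8:84125989-84132527, plus strand) stand alone. Aspn, Omd and Ogn lie within the span of Cenpp, a centromere protein gene on the opposite strand with 5.06 to 9.92 TPM, Prelp overlaps an antisense transcript, and Podn overlaps Scp2, a lipid carrier gene on the same strand with 92.1 to 128 TPM. The library kit keeps strand, but whether the counting used it is not given in the sources used here, so the values of these 5 genes, and of Omd above all at 1.55 to 4.39 TPM, are uncertain to that extent.

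Promoter windows of 250 bases before the RefSeq start site (GRCm38.p6, the assembly behind mm10) are shown for 5 members, read 5′ to 3′ on the gene's own strand: both genes of the chromosome 1 pair, whose levels varied most, Aspn and Ogn, neighbours whose levels moved apart, and Bgn, the most abundant. The RefSeq table held 7 of the 10 members, and Dcn, Lum and Podnl1 were not among them. Capitals mark, on either strand, the TATA box letters TATAAA, the CCAAT box CCAAT, the GC box GGGCGG and the AP-1 letters TGANTCA. The windows are chr1:133921402-133921651 (minus strand) for Prelp, chr1:134037004-134037253 (plus) for Fmod, chr13:49544193-49544442 (plus) for Aspn, chr13:49607765-49608014 (plus) for Ogn and chrX:73483351-73483600 (plus) for Bgn.
Prelp: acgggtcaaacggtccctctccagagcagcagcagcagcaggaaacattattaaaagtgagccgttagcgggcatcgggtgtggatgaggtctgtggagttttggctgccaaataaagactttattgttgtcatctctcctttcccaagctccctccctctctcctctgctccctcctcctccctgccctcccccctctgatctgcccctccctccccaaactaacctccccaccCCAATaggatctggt
Fmod: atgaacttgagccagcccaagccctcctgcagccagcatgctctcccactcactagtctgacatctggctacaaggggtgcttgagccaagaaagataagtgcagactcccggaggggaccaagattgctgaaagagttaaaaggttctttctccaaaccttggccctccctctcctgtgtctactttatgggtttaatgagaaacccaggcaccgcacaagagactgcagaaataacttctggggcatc
Aspn: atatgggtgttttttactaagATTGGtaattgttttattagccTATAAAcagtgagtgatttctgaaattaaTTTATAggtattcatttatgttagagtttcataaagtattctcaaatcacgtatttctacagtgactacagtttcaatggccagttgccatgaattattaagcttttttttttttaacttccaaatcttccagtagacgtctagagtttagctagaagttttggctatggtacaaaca
Ogn: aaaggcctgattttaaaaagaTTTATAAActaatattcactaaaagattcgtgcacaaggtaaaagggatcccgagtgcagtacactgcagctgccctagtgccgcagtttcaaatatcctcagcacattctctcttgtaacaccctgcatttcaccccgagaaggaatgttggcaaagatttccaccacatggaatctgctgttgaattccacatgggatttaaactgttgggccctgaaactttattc
Bgn: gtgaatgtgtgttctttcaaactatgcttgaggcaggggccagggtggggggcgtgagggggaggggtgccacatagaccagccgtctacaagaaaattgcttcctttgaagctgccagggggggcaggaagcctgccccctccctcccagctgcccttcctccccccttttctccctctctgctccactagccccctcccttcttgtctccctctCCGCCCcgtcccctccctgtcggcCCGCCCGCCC
Among all 32851 RefSeq promoter windows of this length, 12.4% held TATAAA, 33.8% CCAAT, 32.7% GGGCGG and 6.75% TGANTCA. Prelp held CCAAT at position -15 from the start site and no other of the 4 motifs, and Fmod held none of the 4, so the 2 neighbours shared none of them. Aspn held TATAAA at positions -207 and -178 and CCAAT at -229. The TATAAA matches of Ogn at positions -229 and -227 overlap each other on opposite strands, and no TATAAA lay nearer to the start site than -178 in the 5 windows. Bgn held GGGCGG at -34, -10 and -6, and its window had a GC content of 64.4%, against 30% for Aspn. These matches describe letters only.

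The levels of each gene are given next, by class. Among class I, Bgn had 4686 and 4865 TPM in M1 and M2, against 4853 and 4642 TPM in W1 and W2, and 5475 and 5286 TPM in M3 and M4, against 5128 and 4611 TPM in W3 and W4. In set 2 it had 5716, 6234 and 6455 TPM in M5, M6 and M7, against 6346 and 5920 TPM in W5 and W6. All 5 cultures of set 2 were above all 8 of set 1, while the genotypes overlapped in the earlier animals and in set 2.

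Aspn, an SLRP with an aspartate stretch, had 413 and 449 TPM in M1 and M2, against 559 and 556 TPM in W1 and W2. It had 515 and 588 TPM in M3 and M4, against 503 and 409 TPM in W3 and W4, and in set 2 it had 600, 667 and 574 TPM in M5, M6 and M7, against 685 and 653 TPM in W5 and W6. The G234D cultures were thus the lower pair in the earlier animals and the higher pair in the later animals. Dcn, which wraps collagen fibrils and binds transforming growth factor-beta, had 100.1 and 90.6 TPM in M1 and M2, against 62.0 and 69.8 TPM in W1 and W2, and 178 and 130 TPM in M3 and M4, against 106 and 99.6 TPM in W3 and W4. Its set 2 levels were 184, 160 and 182 TPM in M5, M6 and M7, against 185 and 194 TPM in W5 and W6. Both G234D pairs of set 1 were above their WT pairs, and all 3 G234D cultures of set 2 were below both WT cultures.

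Among class II, Fmod, a keratan sulfate-bearing regulator of collagen cross-linking, had 41.3 and 51.8 TPM in M1 and M2, against 79.5 and 73.3 TPM in W1 and W2, and 127 and 139 TPM in M3 and M4, against 98.0 and 68.2 TPM in W3 and W4. In set 2 it had 119, 133 and 151 TPM in M5, M6 and M7, against 164 and 170 TPM in W5 and W6. M1 and M2 held its 2 lowest levels, and the genotypes did not overlap in any range, with G234D below WT in the earlier animals, above it in the later animals and below it in set 2.

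Prelp, which anchors basement membranes to the connective tissue below, had 9.77 and 8.58 TPM in M1 and M2, against 5.84 and 7.15 TPM in W1 and W2. It had 26.0 and 38.8 TPM in M3 and M4, against 26.6 and 18.3 TPM in W3 and W4, and 42.3, 63.5 and 44.1 TPM in M5, M6 and M7, against 61.0 and 59.8 TPM in W5 and W6. The 3 ranges did not overlap, and the genotypes overlapped in the later animals and in set 2. Lum, a keratan sulfate-bearing partner of Fmod on fibrils, had 7.52 and 5.83 TPM in M1 and M2, against 5.37 and 7.04 TPM in W1 and W2, and 16.96 and 7.83 TPM in M3 and M4, against 5.99 and 8.91 TPM in W3 and W4. Its set 2 levels were 13.9, 9.85 and 14.4 TPM in M5, M6 and M7, against 18.7 and 19.7 TPM in W5 and W6. M3 stood above the 7 other cultures of set 1, and the G234D cultures of set 2 were all below the WT cultures. Omd, known from bone matrix, had 1.55 to 4.39 TPM with a median of 2.38 TPM in the 7 G234D cultures, and 2.503 to 3.91 TPM with a median of 3.11 TPM in the 6 WT cultures, which overlapped.

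Ogn, the class III member, had 50.8 and 54.2 TPM in M1 and M2, against 47.6 and 51.7 TPM in W1 and W2, and 41.6 and 34.5 TPM in M3 and M4, against 23.9 and 33.6 TPM in W3 and W4. In set 2 it had 43.6, 51.2 and 52.4 TPM in M5, M6 and M7, against 54.4 and 46.0 TPM in W5 and W6. The later animals of set 1 held its 4 lowest levels. Of class V, Podn, a collagen-binding inhibitor of smooth muscle growth, had 42.0 and 55.8 TPM in M1 and M2, against 50.5 and 39.5 TPM in W1 and W2, and 74.9 and 59.9 TPM in M3 and M4, against 41.0 and 43.8 TPM in W3 and W4. In set 2 its levels were 94.0, 89.0 and 125.0 TPM in M5, M6 and M7, against 103 and 77.7 TPM in W5 and W6. Every culture of set 2 lay above every culture of set 1. Podnl1, the least studied member, had 3.84 and 4.91 TPM in M1 and M2, against 10.3 and 12.04 TPM in W1 and W2, and 8.22 and 9.65 TPM in M3 and M4, against 14.1 and 11.96 TPM in W3 and W4. In set 2 it had 9.07, 9.38 and 7.43 TPM in M5, M6 and M7, against 10.1 and 8.98 TPM in W5 and W6. All 4 G234D cultures of set 1 lay below all 4 WT cultures, and the genotypes overlapped in set 2.

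**Figure D2:**
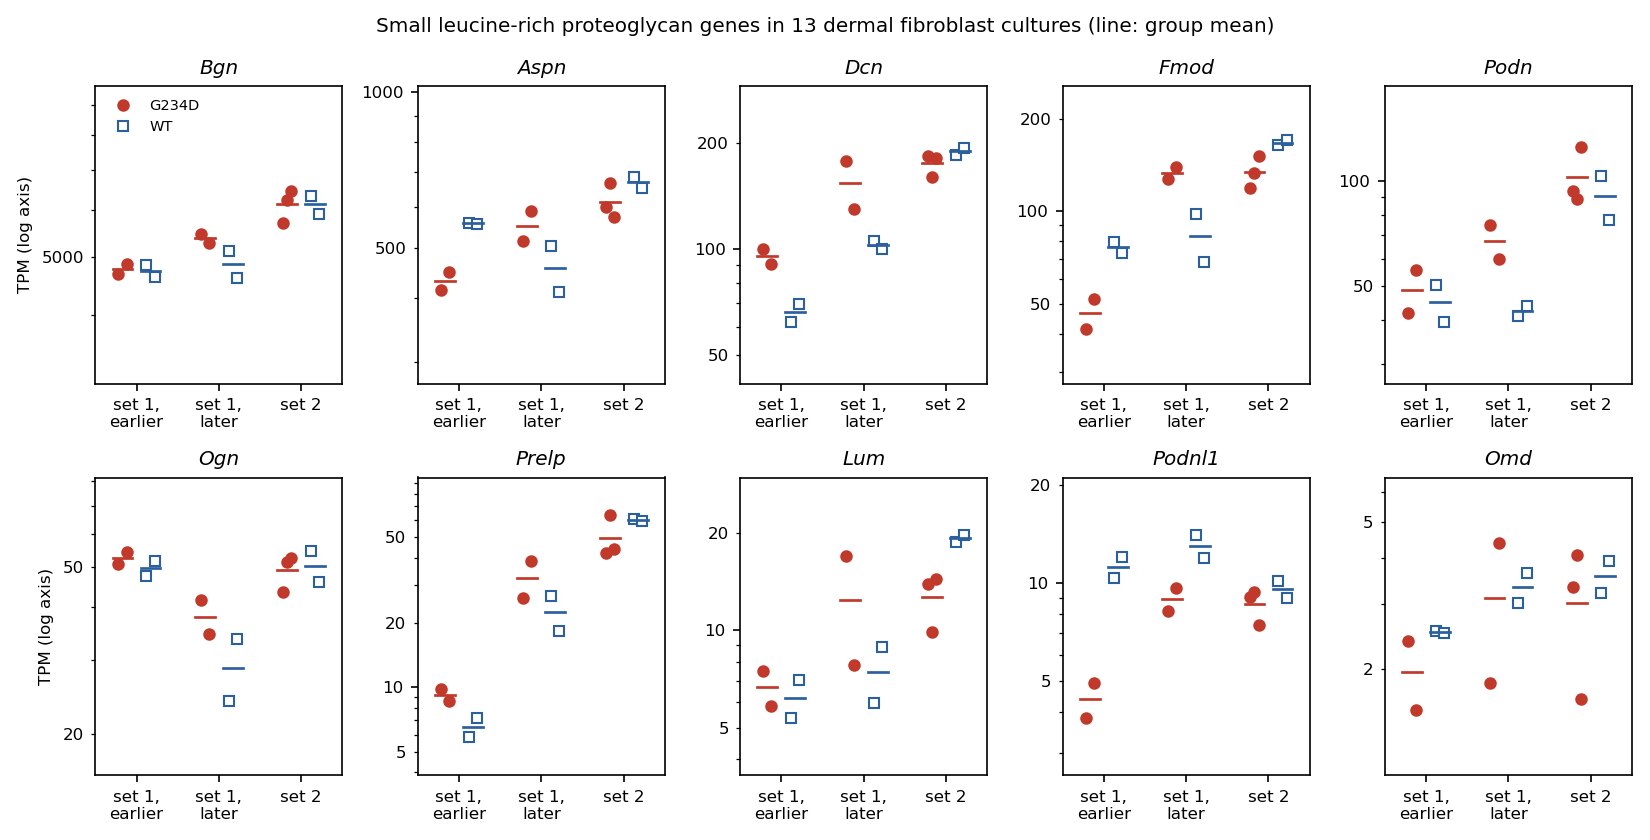
TPM (y axes, log scale, 1 panel per gene) of the 10 SLRP genes in 13 cultures, by range of animal numbers (x axis), with G234D as filled circles left of WT as open squares and a line at each group's mean. Prelp spans 5.84 to 9.77 TPM in the earlier animals, 18.3 to 38.8 TPM in the later animals and 42.3 to 63.5 TPM in set 2, Ogn dips in the later animals, Fmod switches the order of the genotypes between the earlier and the later animals, and Podnl1 is lower in G234D cultures of set 1.

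The first question was whether the mutation altered the expression of matrix genes by the fibroblasts themselves. Over both sets, 0 of the 10 SLRP genes passed limma's test of G234D against WT with set as a covariate at an adjusted p of 0.05, as did 0% of all genes (0 of 11942), with 769 genes at an unadjusted p under 0.05. The class V genes stood lowest in p. Podnl1 was 0.58 lower on the log2(TPM + 1) scale (log2 difference -0.58, SE 0.187, unadjusted p = 0.00901, adjusted p = 0.742) and lay under the average of the WT cultures of the same set in 7 of 7 G234D cultures. Podn was 0.30 higher (SE 0.131, unadjusted p = 0.0373, adjusted p = 0.765) and lay over that average in 5 of 7. Neither passed the adjusted threshold.

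The other 8 members had log2 differences between -0.21 for Omd and 0.30 for Dcn, with adjusted p from 0.885 to 1. The 95% intervals show what size these cultures leave possible. That of Bgn ran from -0.06 to 0.16 and that of Aspn from -0.27 to 0.11, whereas that of Prelp ran from -0.72 to 1.09 and that of Fmod from -0.70 to 0.45. Of the 10 members 5 were higher and 5 lower in G234D cultures, and their median was 0.02, against 0.01 over all genes. The split was 6 higher and 4 lower within set 1 (median 0.16, against -0.00038 over all genes). Within set 2 it was 1 higher and 9 lower (median -0.13, against 0.03 over all genes).

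Within set 1, 0 of the 10 passed (0% of 11905 genes). Podnl1 differed by -0.84 (SE 0.24, adjusted p = 0.647) and was the 1 member whose genotypes did not overlap, against 4.16% of genes. Dcn differed by 0.54 (adjusted p = 0.827) and Podn by 0.38 (adjusted p = 0.804). Within set 2, 0 of the 10 passed (0.00829% of genes, 1 of 12060). Lum differed by -0.58 (SE 0.145, adjusted p = 0.617), Fmod by -0.32 (SE 0.0901, adjusted p = 0.672) and Dcn by -0.11 (adjusted p = 0.793). For these 3 members the genotypes of set 2 did not overlap, against 23.6% of genes. The difference between the sets in the genotype effect passed for 0 of the 10 (0% of 11942 genes), with estimates from -0.92 for Lum to 0.70 for Podnl1 and a median of -0.24, against 0.03 over all genes.

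Within the ranges of animal numbers the genotype differences of Fmod and Aspn turned from one range to the next, and that of Podnl1 stood at -1.18 among the earlier animals, at -0.50 among the later ones and at -0.14 in set 2. In the earlier animals 4 of the 10 members passed, in a fit of the 13 cultures by range and genotype that was added after the values were seen, against 5.59% of genes. Podnl1 fell by 1.18 (SE 0.14, adjusted p = 0.000407), Fmod fell by 0.71 (SE 0.168, adjusted p = 0.0399), Aspn fell by 0.37 (SE 0.0973, adjusted p = 0.0479), and Dcn rose by 0.53 (SE 0.126, adjusted p = 0.0368). As ratios of mean TPM, G234D over WT, these came to 0.391, 0.609, 0.773 and 1.45. The groups of 2 did not overlap for 6 of the 10 members, against 57.7% of genes, so non-overlap in so small a range says little.

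In the later animals 0 of the 10 passed, against 0.536% of genes. Fmod differed by 0.69 (SE 0.168, adjusted p = 0.12), Podn by 0.65 (SE 0.217, adjusted p = 0.256), Lum by 0.60 (adjusted p = 0.497), Dcn by 0.56 (SE 0.126, adjusted p = 0.089), Ogn by 0.41 (adjusted p = 0.304) and Podnl1 by -0.50 (SE 0.14, adjusted p = 0.147). The genotypes did not overlap for 7 of the 10, against 39.7% of genes. In set 2, 0 of the 10 passed in the same fit, against 0.00837% of genes, with Lum at -0.58 (adjusted p = 0.666) and Fmod at -0.32 (adjusted p = 0.66). Averaged over the 3 ranges with equal weight, Podnl1 alone passed, at -0.61 (adjusted p = 0.0026). That fit called 1.06% of genes (126 of 11942), and it too was added after the values were seen. Its parts were -1.18 in the earlier animals, the only one that passed, -0.50 in the later animals and -0.14 in set 2. Over 10 alternative settings the genotype difference of Podnl1 over both sets ran from -0.64 to -0.27.

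**Figure D3:**
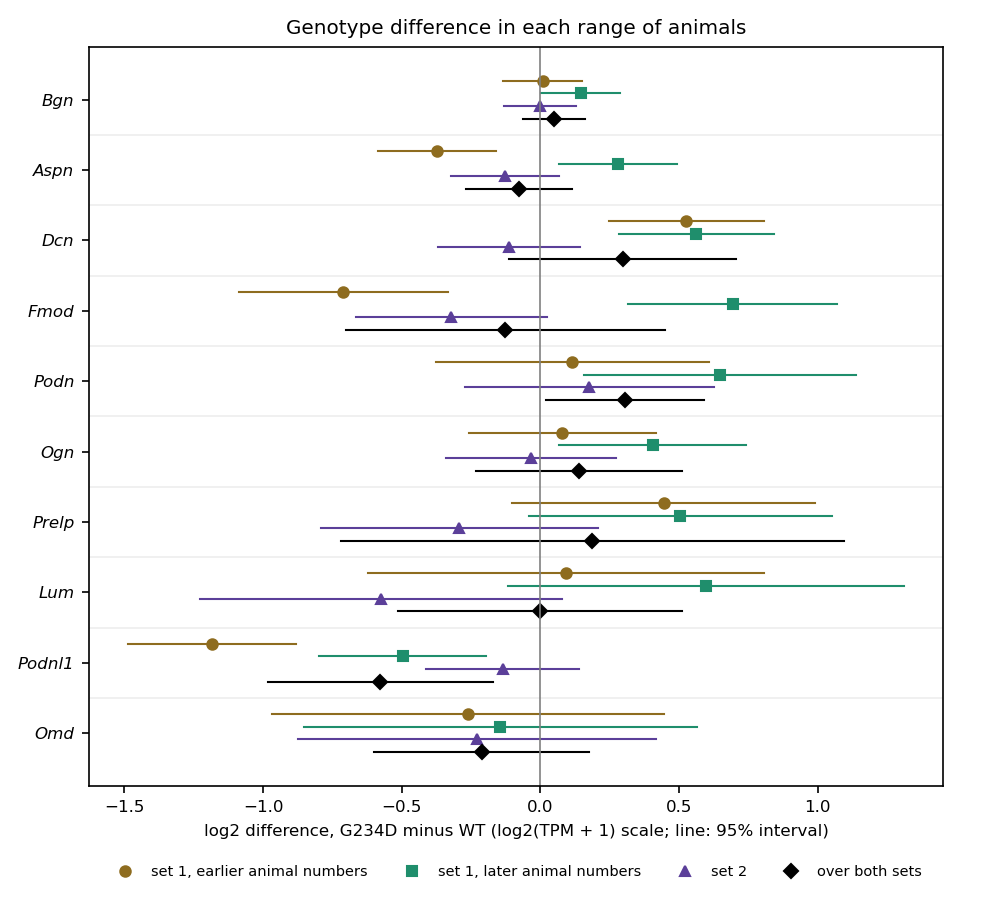
Difference of G234D minus WT on the log2(TPM + 1) scale (x axis) for each gene (y axis, in order of mean level), as point and 95% interval, in the earlier animals of set 1 (circles), the later animals of set 1 (squares), set 2 (triangles) and over both sets (diamonds). Podnl1 lies left of 0 in all 4, Fmod lies at -0.71, 0.69 and -0.32 in the 3 ranges, and Aspn at -0.37, 0.28 and -0.13.

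In set 1 Fmod alone was called for a genotype difference that changed with the range of animals, and that call was fragile. The difference of later minus earlier animals in the G234D effect was 1.40 for Fmod (SE 0.252, adjusted p = 0.0435), the 1 of 10 members that passed this test, also added after the values were seen, against 2.81% of genes (334 of 11905). That number of genes was 46 without M1, 61 without W4, 69 without W2, 79 without W1, 173 without W3 and 686 without M3. Aspn had 0.65 (adjusted p = 0.0534) and Podnl1 0.69 (adjusted p = 0.0904), and all 10 estimates were above 0, with a median of 0.42, against 0.02 over all genes. Those of Dcn, Lum, Omd and Prelp went below 0 when certain cultures were left out. The call of Fmod was lost when any of 5 cultures was left out: its adjusted p was 0.136 without W1, 0.126 without W2, 0.142 without M1, 0.0787 without M3 and 0.11 without M4. Its estimate ran from 1.15 to 1.66 over all 8 cultures left out in turn, and with no filter on low TPM its adjusted p was 0.0571.

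M1 and M2, the G234D cultures of the earlier range, had the highest sums of skeletal muscle, macrophage, and Schwann cell and melanocyte markers. For macrophage markers M1 was close to M5. The summed level of the 10 skeletal muscle markers was 330 and 282 TPM in M1 and M2, against 157 and 132 TPM in W1 and W2 and 65.2 to 159 TPM in the 9 other cultures. The 9 macrophage markers summed to 155 and 203 TPM in M1 and M2, against 90.1 and 35.2 TPM in W1 and W2 and 30.2 to 152 TPM in the 9 others. The 10 Schwann cell and melanocyte markers summed to 127 and 130 TPM in M1 and M2, against 22.5 and 24.2 TPM in W1 and W2 and 23.2 to 46.1 TPM in the 9 others. Of these lists 8, 8 and 6 markers reached 1 TPM in M1 and M2, where the melanocyte gene Dct was under 0.1 TPM. The part of these markers in the genotype differences was not tested. Without M1 and M2 the difference of Fmod in set 1 was 0.74 (adjusted p = 0.0968) in place of -0.01, and that of Podnl1 was -0.40. That fit set M3 and M4, both later animals, against WT cultures of both ranges, so genotype and range were partly mixed in it.

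Of the 10 SLRP genes, 3 differed between the later and the earlier animals of set 1 in a fit with genotype as a covariate, with Prelp and Dcn higher and Ogn lower in the later animals. The share called was 7.14% of genes (850 of 11905), 2.79% higher and 4.35% lower. That number of genes was 36 without M2, 120 without M1, 288 without M4, 298 without W1, 349 without M3 and 495 without W3. Prelp averaged 27.5 ± 8.46 TPM in later and 7.83 ± 1.71 TPM in earlier animals (SD, n = 4 each), a ratio of 3.50, and rose by 1.66 on the log2(TPM + 1) scale (SE 0.149, adjusted p = 0.00511), the fifth smallest p among all genes. Dcn averaged 128 ± 35.6 TPM in later and 80.6 ± 17.7 TPM in earlier animals and rose by 0.65 (SE 0.0929, adjusted p = 0.0137). Ogn averaged 33.4 ± 7.28 TPM in later and 51.1 ± 2.75 TPM in earlier animals and fell by 0.62 (SE 0.119, adjusted p = 0.0276). The ranges did not overlap for Prelp and Ogn, against 15.4% of genes.

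The other members did not pass. Fmod differed by 0.80 (adjusted p = 0.151), Podnl1 by 0.55 (adjusted p = 0.0617), Lum by 0.47 (adjusted p = 0.269) and Aspn by 0.03 (adjusted p = 0.922). The median over the members was 0.41, against -0.02 over all genes, of which 90% lay between -0.41 and 0.27. Aspn and Ogn, 2 genes apart on chromosome 13, thus differed by 0.03 and -0.62, and the ratio of Aspn to Ogn ran from 12.2 to 21.0 in later and from 8.14 to 11.7 in earlier animals.

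Prelp passed whichever of the 8 cultures was left out. Dcn did not pass without M2 (adjusted p = 0.0661), and Ogn did not pass without W1 (0.0657), M1 (0.0627), M2 (0.1) or M4 (0.071), nor with no filter on low TPM (0.0514). Without both M1 and M2 none of the 3 passed in limma's test. Prelp was at 1.63 (adjusted p = 0.143), Dcn at 0.63 (adjusted p = 0.241) and Ogn at -0.79 (adjusted p = 0.206). That fit called 0.126% of genes (15 of 11905). An unadjusted p under 0.05 was reached by 4 of the 10 members, against 10.5% of genes (1255 of 11905). In the 4 WT cultures alone Prelp and Dcn passed, and Ogn was at -0.79 (adjusted p = 0.13), against 1.65% of genes called (197 of 11905). The estimates of these fits are the same by design, because without M1 and M2 the earlier animals are WT only. The fits differ only in the spread used for the test. The 8 pericyte and smooth muscle markers summed to 7086 to 8612 TPM in later and 9806 to 10978 TPM in earlier animals, and 5 of the 8 were called lower. Their part in these differences was not tested.

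**Figure D4:**
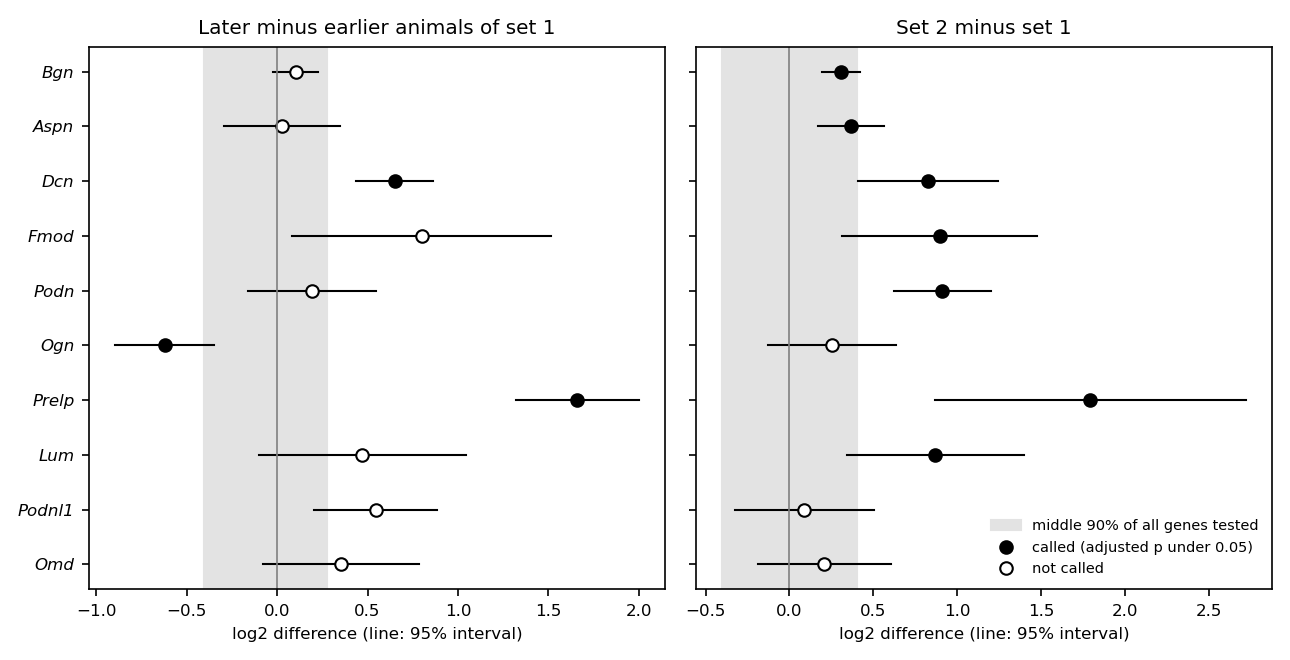
Differences on the log2(TPM + 1) scale (x axes) for each gene (y axis) between the later and the earlier animals of set 1 (left) and between set 2 and set 1 (right), as point and 95% interval, filled where the adjusted p is under 0.05, with the middle 90% of all genes tested shaded. Prelp lies farthest from 0 in both panels, at 1.66 and 1.79, and Ogn is the 1 member below 0, in the left panel.

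Between the sets, 7 of the 10 SLRP genes were called, and all 7 were higher in set 2: every class I gene, 3 of the 4 class II genes and Podn. Of all genes 39.1% were called (4708 of 12033), 17.5% as higher and 21.7% as lower in set 2. Prelp averaged 54.1 ± 10.1 TPM in set 2 (SD, n = 5) and 17.6 ± 11.9 TPM in set 1 (SD, n = 8) and rose by 1.79 (SE 0.424, adjusted p = 0.0061). Podn averaged 97.8 ± 17.8 TPM in set 2 and 50.9 ± 12.2 TPM in set 1 and rose by 0.91 (SE 0.134, adjusted p = 0.000319). Fmod rose by 0.89 (adjusted p = 0.0194), Lum by 0.87 (adjusted p = 0.0138), Dcn by 0.83 (adjusted p = 0.00523), Aspn by 0.37 (adjusted p = 0.00658) and Bgn by 0.31 (SE 0.0533, adjusted p = 0.000647). Bgn averaged 6134 ± 308 TPM in set 2 and 4943 ± 320 TPM in set 1.

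Ogn at 0.25 (adjusted p = 0.277), Omd at 0.21 (adjusted p = 0.394) and Podnl1 at 0.09 (adjusted p = 0.743) did not pass. The sets did not overlap for Bgn, Prelp and Podn, against 17.2% of genes. The median over the 10 members was 0.60, against -0.01 over all genes, of which 90% lay between -0.40 and 0.40. The dermal fibroblast markers, which include Col1a1, Col1a2 and Col3a1, summed to 27117 to 30769 TPM in set 2 and 19302 to 25983 TPM in set 1, with 4 of 9 called higher and 1 lower. All 8 macrophage markers tested were on the higher side in set 2, with a median of 0.47 and 1 called, and of the 8 Schwann cell and melanocyte markers tested 1 was called higher and 2 lower, with a median of -0.82. The part of these markers was not tested. Set and every step of handling that went with it cannot be told apart.

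When set 2 was compared with the later animals of set 1 only, an alternative added after the values were seen, 6 members passed, against 29.9% of genes (3597 of 12033). Lum at 0.64 (adjusted p = 0.159) and Fmod at 0.47 (adjusted p = 0.152) were no longer called, Ogn was called as higher in set 2 at 0.56 (adjusted p = 0.0122), Prelp moved to 0.97 and Dcn to 0.51. With WT cultures alone 6 members passed, against 31.8% of genes, with Prelp at 2.22 (adjusted p = 0.0738) and Lum at 1.39, and without W6 Fmod was at 0.85 (adjusted p = 0.056).

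Genes that make, bind or cut SLRPs were read from lists drawn up with earlier results of these data known. No gene of these lists was called for genotype over both sets, and between the sets, where 39.1% of all genes were called, each list held calls. The counts of the lists are to be read against the share of all genes called in the same comparison. That share was 7.14% between later and earlier animals, 39.1% between the sets and 2.81% in the range by genotype test. A count near it is no result about the list. Of the 8 further SLRP-like genes, Tsku (tsukushi) was the most abundant at 28.6 to 41.5 TPM, Ecm2 had 1.10 to 2.97 TPM, Optc 0.674 to 1.72 TPM, Chadl 0.507 to 1.35 TPM and Kera (keratocan) 0.0451 to 0.866 TPM. Epyc, Nyx and Chad, known from cartilage and eye, reached at most 0.0428, 0.115 and 0.203 TPM. Of the 3 tested, Ecm2 was called between the sets, at 0.35 (adjusted p = 0.0237), but not without M5.

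Of 22 genes for the linkage region and for chondroitin and dermatan sulfate, 20 were tested, 0 were called for genotype over both sets and their median was 0.04, against 0.01 over all genes. Between later and earlier animals, where 7.14% of all genes were called, 1 was higher, Csgalnact1, which starts chondroitin chains, at 0.43 (adjusted p = 0.0274), and 3 were lower, namely the sulfotransferases Chst12 at -0.39 (adjusted p = 0.0403) and Ust at -0.34 (adjusted p = 0.0282) and the xylose kinase Fam20b at -0.17 (adjusted p = 0.0465). None of the 20 was called without M1, without M2 or without M3, and without M4 the 1 call was another gene, Chst11. In set 2 against set 1, 8 of the 20 were called, against 39.1% of all genes, 5 higher (Xylt2, B3galt6, Chsy3, Chpf and Chst14) and 3 lower (Xylt1, Chst11 and Ust). Xylt1 and Xylt2, the paralogous enzymes that attach the first sugar, were called in opposite directions, with Xylt1 at 3.81 ± 0.523 TPM in set 2 and 5.52 ± 0.724 TPM in set 1 (log2 difference -0.46, adjusted p = 0.000611), and Xylt2 at 22.8 ± 0.681 TPM in set 2 and 19.3 ± 1.27 TPM in set 1 (log2 difference 0.23, adjusted p = 0.00162). Chst14, the dermatan sulfate sulfotransferase, was higher in set 2 at 0.24 (adjusted p = 0.000592). In the range by genotype test Chst12 was the 1 gene called, at -0.46 (adjusted p = 0.0296), a call that was lost without any of M1, M2, W1, W2, W3 or W4. Of 8 keratan sulfate genes 6 were tested and 0 called for genotype, and between the sets B4galt4 was higher at 0.31 (adjusted p = 0.00783) and Chst1 lower at -0.57 (adjusted p = 0.00159).

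Of 18 genes for collagens, fibrillins and other fibril partners 17 were tested, 0 were called for genotype over both sets, and their median was -0.04. Only 1 of the 17 was called between later and earlier animals, against 7.14% of all genes. This was Dpt (dermatopontin), a small matrix protein that binds decorin. It had 100.05 ± 13.6 TPM in later and 50.6 ± 11.04 TPM in earlier animals, a rise of 0.98 (SE 0.131, adjusted p = 0.0138). Dpt was not called without M2, without both M1 and M2, or in WT cultures alone. In set 2 against set 1, 9 of the 17 were called, against 39.1% of all genes, 7 higher (against 17.5%) and 2 lower (against 21.7%). Eln (elastin) rose by 1.75 (adjusted p = 0.000192), Col3a1 by 0.88 (adjusted p = 0.000371) and Col5a2 by 0.38 (adjusted p = 0.000142), and the others that rose were Col1a1, Col1a2, Col6a2 and Mfap2. Col12a1 fell by 0.43 (adjusted p = 0.0036) and Fbn1 by 0.27 (adjusted p = 0.00324). In the test of range by genotype, where 2.81% of all genes were called, 3 were higher and 1 lower, beside Fmod at 1.40. None of the 17 was called without M1, and 1 each without W1, W2 or W4 (Fbn2, Col3a1 and Fbn2). Col3a1 had 2876 TPM in G234D and 1954 TPM in WT cultures of the later animals and 1747 TPM in G234D and 2294 TPM in WT cultures of the earlier animals (means, n = 2 each), a difference of 0.95 (adjusted p = 0.0242), and Fbn2 had 0.84 (adjusted p = 0.0151) and Col6a1 0.58 (adjusted p = 0.039). The lower gene was Thbs1, at -0.47 (adjusted p = 0.0436).

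Of 14 proteases that cut SLRPs or their partners 13 were tested, and 0 were called for genotype over both sets. Between later and earlier animals 3 of the 13 were called, against 7.14% of all genes. Adamts1 rose by 0.50 (adjusted p = 0.0403), while Mmp9 fell by 1.21 (adjusted p = 0.00576) and Ctss, a protease of macrophages, fell by 1.42 (adjusted p = 0.038). Mmp9 was called whichever single culture was left out, but it was the 1 protease called without M1, M2, M4, W1 or W3. The macrophage markers summed to 30.2 to 43.5 TPM in later and 35.2 to 203 TPM in earlier animals, and their part was not tested. In set 2 against set 1, 5 of the 13 were called, against 39.1% of all genes, and all 5 rose, Adamts1 by 0.82 (adjusted p = 0.00132), Adamts5 by 0.49 (adjusted p = 0.000157), Mmp14 by 0.31 (adjusted p = 5.52e-05), and Ctsk and Bmp1 by less. Tll1, a tolloid protease of the family that trims SLRP propeptides, was called in the range by genotype test at -0.94 (adjusted p = 0.0087), with 17.1 TPM in G234D and 27.5 TPM in WT cultures of the later animals and 39.0 TPM in G234D and 31.9 TPM in WT cultures of the earlier animals (means, n = 2 each). It was not called without M1.

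Of 20 receptor and cytokine genes that SLRPs bind 19 were listed and 15 tested over both sets, with 0 called for genotype. Between later and earlier animals 3 of 14 were called, against 7.14% of all genes. Tgfb2 averaged 10.7 ± 1.86 TPM in later and 21.4 ± 0.964 TPM in earlier animals and fell by 0.95 (SE 0.0954, adjusted p = 0.00511), Tgfb3 fell by 0.30 (adjusted p = 0.0274), and Tlr2, a receptor of biglycan and decorin, rose by 0.49 (adjusted p = 0.0272). Tgfb2 was called whichever single culture was left out and was the 1 gene called without M1, M2, M4, W1 or W3. In set 2 against set 1, 7 of 15 were called, against 39.1% of all genes. Of these 2 rose, Bmp4 by 0.84 (adjusted p = 0.00874) and Tgfb1 by 0.15 (adjusted p = 0.00643), and 5 receptors fell. These were Met by 0.71 (adjusted p = 0.00017), Lrp1 by 0.48 (adjusted p = 0.00207), Egfr by 0.38 (adjusted p = 0.0225), Igf1r by 0.26 (adjusted p = 0.00395) and Tgfbr1 by 0.23 (adjusted p = 0.00372), of which Met, Egfr, Igf1r and Lrp1 are known to bind decorin.

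The genes most like 8 of the members across the cultures were read from 9729 genes, as Pearson's r of log2(TPM + 1) centred within the 4 groups of set and genotype over 13 cultures, as a description only. Podnl1 was most like Triqk (r = 0.98, and 0.91 when centred within range and genotype). Dcn was most like Cdsn (0.98 and 0.85), and Fmod most like Nkd1 (0.98 and 0.79). Ogn was most like Schip1 (0.95 and 0.95) and Bgn most like Arhgap31 (0.95 and 0.94). For Aspn the first was Ccn3 (0.93 and 0.79), for Podn Wdr82 (0.95 and 0.92), and for Omd Ndufs8 (0.94 and 0.98). No member headed another member's list, since members were left out of the search.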

How the data were processed

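RNA from 13 cultures was measured by RNA-seq, with a directional library kit, per the labels. The authors made the TPM values, as deposited with 1 column per library, and mm10 is named in the submitters' processing notes. Which aligner, counter and annotation were used is not stated in the labels or file headers. Groups were taken from the genotype labels and sets from the design text. TPM were log2-transformed with a pseudocount of 1, a gene was tested if it had 1 TPM or more in 6 libraries for both sets together, in 4 for set 1, in 2 for set 2 and in 5 for set 2 against set 1, and limma 3.58.1 in R 4.3.3 was fitted to all kept genes with trend and robust variance, with Benjamini-Hochberg adjusted p and a threshold of 0.05. The genotype fit over both sets had set as a covariate, the fits of ranges and sets had genotype, and the script was tested on simulated data. The p-values measure the spread between cultures of separate mice. The 10 members, the gene and marker lists and the tests were chosen with earlier results of these data known. Apart from the members, genes were named where they passed a comparison or had the lowest p of their list, and the remaining called genes were named so that each count is complete.

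Replicate numbers were checked by the correlation of same-numbered cultures' deviations from their group means over all genes. These were 0.314, 0.236, 0.244 and 0.214 in set 1, above the limit of 0.1 for pairing, and -0.155 and 0.0138 in set 2. M2 correlated best with W1 (0.397) and M4 with W3 (0.44), cultures of the same range of animal numbers. No 2 libraries were identical.

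Loci came from GENCODE on mm10, and promoter sequences from RefSeq (GRCm38.p6). Alternatives tried were a pseudocount of 0.1, a filter of 10 TPM, no filter, median-of-ratios scaling, quantile normalization, no robust step, a replicate block, animal numbers as a covariate, no set term, leaving out each culture, and leaving out M1 and M2. Comparisons added after the data were seen were those of range by genotype, of each range, of the average over the 3 ranges, of WT cultures alone and of set 2 against the later animals. The genes most like Prelp and Lum are not reported here.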

Additional observations from a re-analysis of the deposited data

Results flagged for a closer look

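The G234D effect on Fmod differed between the later and the earlier animals of set 1 by 1.40 on the log2(TPM + 1) scale, and limma's test of that difference passed (adjusted p = 0.0435). The call held in 3 of 8 fits with 1 culture left out.

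Aspn moved in opposite directions in every culture of the 2 ranges of set 1, with G234D minus WT at 0.28 in the later animals and -0.37 in the earlier animals, and the test of that difference gave an adjusted p of 0.0534 in limma. Dcn was lower in all 3 G234D cultures of set 2 (-0.11) and higher in both of the later animals (0.56), and for Lum the fitted differences were -0.58 in set 2 and 0.60 in the later animals. The difference between these ranges was not tested for Dcn and Lum. Between the whole sets it was -0.66 for Dcn (adjusted p = 0.869) and -0.92 for Lum (adjusted p = 0.86), neither called. Of 20 groups looked at for a culture far from the others, 0 held one.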

How the results depend on the processing

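Of 1225 alternative values of the 10 genes, 1129 kept their direction and side of the threshold, 65 changed sign, 20 lost a call and 11 gained one. In the genotype comparisons over both sets and in set 1, no alternative listed at the outset called a member. The fit averaged over the 3 ranges, added after the values were seen, gave 1 (Podnl1). The replicate block gave 0 calls over both sets and in set 1, and 1 in set 2 (Fmod at -0.41, adjusted p = 0.0354 in limma), where the numbers do not pair the cultures, and it changed no other call. It could not be fitted where numbers are nested in ranges or sets. The count of calls in set 2 ran from 0 to 1 with 1 culture left out, being 1 without M6 (Prelp at -0.47, adjusted p = 0.0423). With W5 or W6 left out, the lone WT culture is assumed to vary like the others. Between later and earlier animals 0 members were called without M1 and M2, and 1 to 4 with 1 culture left out. In the test of range by genotype 0 were called with no filter, 2 (Fmod and Aspn) with a filter of 10 TPM, with no robust step and with quantile normalization, and 0 to 2 with 1 culture left out. The filter of 10 TPM removed Omd, Lum and Podnl1 from the fit over both sets. For the changed counts and signs the cause was not tested.

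Signs changed only in uncalled differences. For Lum over both sets the log2 difference was 0.0073 with the pseudocount of 0.1, 0.0073 with the replicate block, 0.082 with no set term, 0.038 averaged over ranges and 0.099 without M1 and M2. Without M1 and M2, Fmod was at 0.24, Ogn at -0.0090 and Aspn at 0.0086 over both sets, and Fmod was at 0.74, Omd at 0.0025 and Aspn at 0.13 in set 1. In these fits the earlier animals were WT only, so genotype and range were partly mixed. Quantile normalization put Bgn at 0.054 in set 2 and Omd at 0.013 in the set by genotype test, and the replicate block put Omd at 0.045 in set 2. Between later and earlier animals, both without M1 and M2 and in WT cultures alone, Aspn was at -0.30 and Podn at -0.074. Both fits give the same estimates by design, because without M1 and M2 the earlier animals are WT only. Between the sets Podnl1 was at -0.31 in WT cultures alone and at -0.21 against the later animals.

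With 1 culture left out, the genotype difference over both sets ran from -0.21 to 0.10 for Lum, -0.30 to 0.041 for Fmod and -0.061 to 0.37 for Prelp. In set 1 it ran from -0.28 to 0.30 for Fmod and -0.14 to 0.032 for Aspn, and in set 2 from -0.051 to 0.050 for Bgn, -0.15 to 0.086 for Ogn, -0.42 to 0.045 for Omd and -0.027 to 0.38 for Podn. The set by genotype test ran from -0.22 to 0.25 for Omd and -0.16 to 0.018 for Aspn, later against earlier animals from -0.074 to 0.15 for Aspn, and set 2 against set 1 from -0.038 to 0.20 for Podnl1. The range by genotype test ran from -0.19 to 0.26 for Dcn, -0.0060 to 1.02 for Lum, -0.35 to 0.58 for Omd and -0.22 to 0.34 for Prelp.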
